A study of Homo sapiens with 30 samples.

Results

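UBE2J1 encodes a tail-anchored enzyme that conjugates ubiquitin at the membrane of the endoplasmic reticulum (ER). It was examined together with 9 other genes of ER-associated degradation (ERAD), 10 of the 25680 gene symbols in the deposited tables. The 10 genes are the conjugating enzymes UBE2J1 and UBE2J2, the ligase complex genes SYVN1, SEL1L and HERPUD1, the derlins DERL1, DERL2 and DERL3, and the substrate selection genes EDEM1 and OS9. They were found by symbol, and the transcript of each with the largest average count in the 12 libraries stood for it, a choice that ignored the groups. UBE2J1 was selected on its lower counts after dBRD9-A in these same libraries, so its values in those comparisons are given as a description without a test. RNA was sequenced from OPM2 and H929, established human cell lines of multiple myeloma, a tumour of antibody-secreting plasma cells. Cells received 100 nM dBRD9-A, a degrader of the bromodomain protein BRD9, or its solvent DMSO for 24 h. The groups were OPM2 with dBRD9-A, OPM2 with DMSO, H929 with dBRD9-A and H929 with DMSO, each with 3 libraries. The labels do not say whether the 3 libraries of a group came from separate cultures, so each p-value rests on a spread between libraries that may be technical.

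ERAD removes proteins that fail to fold in the ER. Mannosidases and lectins pick out misfolded glycoproteins, a membrane ligase complex built around HRD1 (the product of SYVN1) and its partner SEL1L passes them back to the cytosol, and conjugating enzymes such as UBE2J1 bring the ubiquitin that marks them for the proteasome. Plasma cells make very large amounts of secreted antibody and carry a large ER, and several ERAD genes are known targets of the unfolded protein response.

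Library totals were 42895389 to 76600945 counts in 11 libraries and 24524193 in OPM2 dBRD9-A replicate 2, which also stood apart in composition. Over 14599 genes, its log2 difference from the other libraries of its group had an SD of 1.08, against 0.229 to 0.320 in the 9 libraries of the other groups, and 0.559 and 0.610 in the other libraries of its group. Spearman's rho of that difference with transcript GC content, a description across genes, was -0.61 in this library, 0.54 and 0.59 in the other libraries of its group and -0.47 to 0.54 in the 9 libraries of the other groups. The other libraries of its group were each compared with a mean that included replicate 2, so their values do not describe them alone. For the 10 genes, OPM2 dBRD9-A replicate 2 was the lowest of its group for 7 and the highest for 3. The fold changes in OPM2 are therefore given with and without it in the text or in the plot of fold changes. On the counts-per-million (CPM) scale, after TMM scaling, all 9 plasma-cell markers reached 1 CPM in every group, and their summed level was 6517 to 7590 CPM in OPM2 with dBRD9-A against 11770 to 14098 CPM in OPM2 with DMSO. For H929 it was 9189 to 10410 CPM with dBRD9-A, against 15584 to 16884 CPM with DMSO. IGJ, the joining chain of secreted antibodies, was the largest part of each sum. In OPM2, XBP1 averaged higher with dBRD9-A (1757 against 1476 CPM), as did CD38 (23.8 against 22.1 CPM). In H929, CD38 averaged higher with dBRD9-A (37.0 against 34.7 CPM). All other plasma-cell markers averaged lower with dBRD9-A in each line. The part of these differences in the results below was not tested. None of 4 B-cell markers reached 1 CPM in any group. Of 4 T-cell markers, CD3E alone reached 1 CPM, at 37.7 CPM in H929 with dBRD9-A and 24.1 CPM in H929 with DMSO, with CD3D and CD3G under 0.1 CPM. The 4 myeloid markers summed to 5.08 to 10.5 CPM in H929 with dBRD9-A against 1.55 to 4.10 CPM with DMSO, mostly CSF1R, and the 4 epithelial markers to 5.86 to 8.02 against 2.31 to 3.35 CPM, mostly KRT8, while CD14, FCGR3A, EPCAM and KRT19 were under 0.1 CPM in H929. CDH1, also an epithelial marker, averaged 1.33 CPM in H929 with dBRD9-A and 0.151 CPM with DMSO. The 4 stromal markers summed to 1.13 to 2.45 CPM in H929 with dBRD9-A against 0.217 to 0.339 CPM with DMSO, mostly COL1A1 at 1.81 against 0.217 CPM, with COL1A2 and COL3A1 at 0. The part of these markers in the results was not tested. BRD9 RNA itself differed by -0.23 ± 0.13 in OPM2 (log2 ± SE, adjusted p 0.241) and by -0.46 ± 0.13 in H929 (adjusted p 0.0391, edgeR), which says nothing of the protein that the compound removes.

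After dBRD9-A, UBE2J1 RNA was far below its DMSO level in both lines, at 0.269 of it in OPM2 and 0.198 in H929. In OPM2 it stood at 150.1, 239 and 172 CPM with dBRD9-A, against 649, 645 and 791 CPM with DMSO. In H929 it stood at 240.1, 222 and 226 CPM with dBRD9-A, against 1109, 1174 and 1182 CPM with DMSO. The groups lay far apart in both lines, and the H929 libraries with dBRD9-A were close to each other. The means were 187 ± 46.1 against 695 ± 83.1 CPM in OPM2 and 229 ± 9.50 against 1155 ± 40.0 CPM in H929 (SD, n = 3 each). On the log2 scale the differences were -1.89 ± 0.16 in OPM2 and -2.33 ± 0.16 in H929 (SE of the fit). Without OPM2 dBRD9-A replicate 2, the highest of its group, the OPM2 value was -2.12 ± 0.11. From the lowest fold change upwards, UBE2J1 was number 90 of 16408 genes in OPM2 and number 28 in H929, and among the 9355 genes with a mean log2 CPM of at least 3 it was number 3 in OPM2 and number 1 in H929. These are bulk samples, in which fewer cells that carry a transcript and less of it per cell cannot be told apart.

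**Figure D1:**
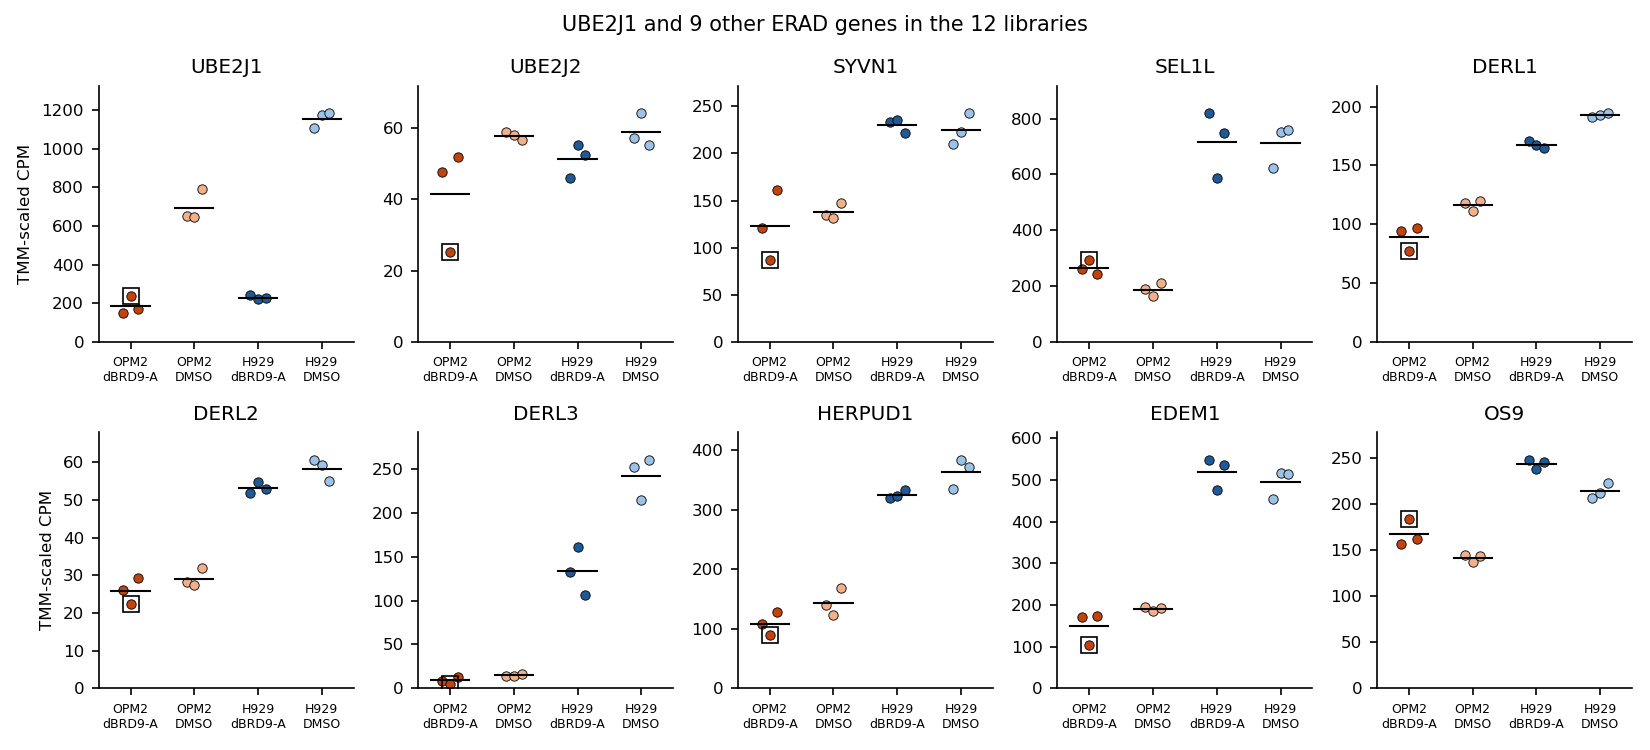
TMM-scaled CPM (vertical axes, starting at 0) of the 10 genes in each library (points) with the group mean (line), in OPM2 and H929 with dBRD9-A or DMSO; a square marks OPM2 dBRD9-A replicate 2. UBE2J1 lies between 150.1 and 240.1 CPM in the 6 libraries with dBRD9-A and between 645 and 1182 CPM in the 6 with DMSO.

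The promoter of UBE2J1 is shown because the gene carries the finding, and that of HERPUD1 because it is the member best known as an ER stress target. Both are the 250 bases before the gene start, from RefSeq on GRCh38.p14, where 8 of the 10 genes were matched, and are written 5′ to 3′ on the gene's strand. UBE2J1 lies on the minus strand at chr6:89352723-89352972 and HERPUD1 on the plus strand at chr16:56931892-56932141. Capitals mark letters of a motif searched on both strands.
UBE2J1: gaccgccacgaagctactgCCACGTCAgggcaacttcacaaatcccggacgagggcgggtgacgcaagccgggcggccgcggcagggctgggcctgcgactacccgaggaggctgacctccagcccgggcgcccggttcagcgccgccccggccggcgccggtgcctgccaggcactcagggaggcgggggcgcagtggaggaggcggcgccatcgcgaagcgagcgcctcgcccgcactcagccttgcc
HERPUD1: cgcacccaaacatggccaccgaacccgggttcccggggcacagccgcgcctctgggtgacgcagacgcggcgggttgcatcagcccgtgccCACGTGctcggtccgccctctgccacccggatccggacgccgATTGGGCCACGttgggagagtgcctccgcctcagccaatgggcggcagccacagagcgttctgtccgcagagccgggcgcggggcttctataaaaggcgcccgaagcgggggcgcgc
In UBE2J1 the capitals are the unfolded protein response element TGACGTGG, known as a site for XBP1 and ATF6, read on the opposite strand and starting 231 bases before the gene start. That word was present in 0.612% of 35116 promoters of this length, and in UBE2J1 alone among the 8 matched genes. In HERPUD1 the capitals are an E-box, CACGTG, present in 6.34% of promoters, and the ER stress response element II, which is ATTGG, any base and then CCACG, present in 0.0513%. The ER stress response element, which is CCAAT, 9 bases of any kind and then CCACG, was in 0.0740% of promoters and in none of the 8. None of the marked words overlaps another. These matches describe letters in the window and not binding. HERPUD1, with the ER stress element, stood at 107, 89.9 and 129 CPM in OPM2 with dBRD9-A against 140.0, 124 and 168 CPM with DMSO, and at 319, 323 and 332 CPM in H929 with dBRD9-A against 335, 383 and 372 CPM with DMSO. Its groups overlapped in OPM2, and in H929 every library with dBRD9-A was below every library with DMSO by a small margin.

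Among the 9 other members, tested with edgeR's quasi-likelihood test and Benjamini-Hochberg adjustment over 16408 genes, 2 were called in OPM2 (SEL1L higher and DERL1 lower, at an adjusted p under 0.05), where 17.4% of all genes were called, 10.1% higher and 7.34% lower. In H929, DERL3 alone was called, lower, where 13.0% of all genes were called, 7.33% higher and 5.67% lower. Both shares are near those of all genes. The median log2 fold change of the 9 genes was -0.35 in OPM2, against 0.03 over all genes, and -0.13 in H929, against -0.0019 over all genes. In OPM2, libraries with dBRD9-A and DMSO did not overlap for 6 of the 9 genes (4 lower and 2 higher with dBRD9-A), against 37.7% of all genes, 18.9% lower and 18.8% higher. In H929 they did not overlap for 6 of the 9 (5 lower and 1 higher), against 45.5% of all genes, 23.6% lower and 22.0% higher.

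UBE2J2, the other conjugating enzyme of the same family, stood at 47.8, 25.1 and 52.0 CPM in OPM2 with dBRD9-A, against 58.9, 58.1 and 56.8 CPM with DMSO. Every library with dBRD9-A was lower, with replicate 2 lowest. The log2 difference of -0.47 ± 0.21 did not pass (edgeR adjusted p 0.135), and without replicate 2 it was -0.23 ± 0.09 (adjusted p 0.0772). UBE2J2 was called lower in OPM2 in 3 of 22 alternatives. These were removal of the GC trend (adjusted p 0.0344), limma-voom (0.0170) and edgeR without OPM2 dBRD9-A replicate 3 (0.0461). In H929 UBE2J2 stood at 46.1, 55.3 and 52.4 CPM with dBRD9-A and 57.1, 64.1 and 55.4 CPM with DMSO, a narrow separation of -0.20 ± 0.21 (edgeR adjusted p 0.592). The count of UBE2J1 per kilobase of transcript over that of UBE2J2 was 1.67, 5.05 and 1.76 in OPM2 with dBRD9-A, against 5.86, 5.90 and 7.40 with DMSO. In H929 it was 2.77, 2.14 and 2.29 with dBRD9-A, against 10.3, 9.73 and 11.4 with DMSO. The ratio was lower in all 6 libraries with dBRD9-A, least so in OPM2 replicate 2, where UBE2J2 was also low. UBE2J1 was selected on its lower counts, so its ratio to a gene that changes little must fall too. This ratio and the other UBE2J1 ratios, ranks and shares below are a description.

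SYVN1, the gene of the HRD1 ligase, stood at 121, 86.4 and 162 CPM in OPM2 with dBRD9-A against 134, 131 and 147 CPM with DMSO, and its groups overlapped. Its log2 difference was -0.16 ± 0.18 in OPM2 (edgeR adjusted p 0.561), and 0.03 ± 0.11 without replicate 2. In H929 it stood at 234, 235 and 221 CPM with dBRD9-A and 209.9, 223 and 243 CPM with DMSO, a difference of 0.03 ± 0.18 (adjusted p 0.939). UBE2J1 over SYVN1, per kilobase, was 0.870, 1.94 and 0.748 in OPM2 with dBRD9-A against 3.39, 3.45 and 3.78 with DMSO. In H929 it was 0.721, 0.663 and 0.716 with dBRD9-A, against 3.71, 3.70 and 3.42 with DMSO. The ratio lay between 3.39 and 3.78 in the 6 DMSO libraries and below 1 in 5 of the 6 with dBRD9-A. Exons of SYVN1 share up to 356 bases with FAU on the same strand in the GENCODE annotation, so its counts can hold reads of that gene.

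SEL1L, the partner that holds HRD1 and its substrates together, rose in OPM2. It stood at 259.7, 294 and 244 CPM with dBRD9-A, against 188, 163 and 210.4 CPM with DMSO. The groups did not overlap. The log2 change was 0.51 ± 0.15 (edgeR adjusted p 0.0367), and 0.42 ± 0.14 without replicate 2 (adjusted p 0.0299). The call was lost in 9 of 22 alternatives, with adjusted p up to 0.152, among them leaving out any OPM2 DMSO library, OPM2 dBRD9-A replicate 1, H929 DMSO replicate 2 or 3, or H929 dBRD9-A replicate 3. The count of UBE2J1 per kilobase over that of SEL1L was 1.05, 1.48 and 1.29 in OPM2 with dBRD9-A against 6.31, 7.22 and 6.86 with DMSO, wholly apart. In H929 SEL1L stood at 819, 586 and 747 CPM with dBRD9-A against 623, 753 and 760.0 CPM with DMSO, overlapping ranges with a difference of 0.01 ± 0.15 (adjusted p 0.978). HERPUD1, which recruits further subunits to the HRD1 complex, differed by -0.40 ± 0.14 in OPM2 (adjusted p 0.0722) and by -0.16 ± 0.14 in H929 (adjusted p 0.516), and neither passed. In OPM2 it was called lower in 3 of 22 alternatives. These were removal of the GC trend (adjusted p 0.0493), limma-voom (0.0133) and edgeR without OPM2 dBRD9-A replicate 3 (0.0211).

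The derlins are membrane proteins that help move substrates out of the ER. DERL1 fell in OPM2, to 94.3, 77.0 and 96.7 CPM with dBRD9-A, against 118, 111 and 119.7 CPM with DMSO. The groups did not overlap, and the change was -0.38 ± 0.10 (log2 ± SE, edgeR adjusted p 0.0251), or -0.30 ± 0.08 without replicate 2 (adjusted p 0.0074). The call was lost in 6 of 22 alternatives, with adjusted p up to 0.131, among them leaving out any OPM2 DMSO library. In H929 DERL1 stood at 171, 167 and 165 CPM with dBRD9-A against 191, 193 and 194 CPM with DMSO. All 3 were lower by a steady margin, yet the difference of -0.20 ± 0.10 did not pass (adjusted p 0.234). Of the 22 alternatives, limma-voom alone called DERL1 lower in H929 (adjusted p 0.0209). DERL2 stood between 22.3 and 29.2 CPM in OPM2 with dBRD9-A and between 27.3 and 31.9 CPM with DMSO, and between 51.9 and 54.8 CPM in H929 with dBRD9-A and between 55.0 and 60.6 CPM with DMSO. Its differences were -0.17 ± 0.12 in OPM2 (adjusted p 0.340) and -0.13 ± 0.12 in H929 (adjusted p 0.521).

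DERL3, the derlin of secretory tissues, fell in H929. It stood at 133, 162 and 107 CPM with dBRD9-A, against 252, 214 and 260.4 CPM with DMSO. The groups did not overlap, and the change was -0.86 ± 0.24 (edgeR adjusted p 0.0378). The call was lost in 12 of 22 alternatives, with adjusted p up to 0.159, among them leaving out any 1 library of H929 or of OPM2 with DMSO, while without OPM2 dBRD9-A replicate 2 the change was -0.83 ± 0.15 (adjusted p 0.0006). In OPM2 the gene was scarce, at 8.71, 5.31 and 12.8 CPM with dBRD9-A against 13.7, 13.9 and 16.3 CPM with DMSO. The difference of -0.69 ± 0.25 did not pass (edgeR adjusted p 0.0745), nor did -0.46 ± 0.18 without replicate 2 (0.0604). DERL3 was called lower in OPM2 in 3 of 22 alternatives. These were DESeq2 (adjusted p 0.0427), limma-voom (0.0081) and edgeR without OPM2 dBRD9-A replicate 3 (0.0091). A shorter DERL3 transcript of 1069 bases averaged 102 ± 22.1 CPM in H929 with dBRD9-A and 171 ± 19.4 CPM with DMSO (SD, n = 3 each). The same reads can enter both transcripts, so this lower level is not separate evidence of the fall. The count of the shorter transcript was 75.4%, 77.0% and 75.5% of that of the main transcript in H929 with dBRD9-A, against 72.4%, 69.4% and 69.8% with DMSO. Exons of DERL3 share up to 2715 bases with SMARCB1 on the opposite strand in the GENCODE annotation. No source used here states the strand setting of the counts, so reads of the pair cannot be told apart, and SMARCB1 averaged 106 CPM in H929 with dBRD9-A and 116 CPM with DMSO. Shared exons on the opposite strand are also annotated for DERL1 with TBC1D31, for DERL2 with MIS12 and for EDEM1 and OS9 with antisense genes.

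Neither gene of substrate selection was called by edgeR with all libraries. EDEM1, a mannosidase-like protein that trims misfolded glycoproteins, stood at 170.4, 105 and 173 CPM in OPM2 with dBRD9-A against 194, 185 and 192 CPM with DMSO, and replicate 2 was far the lowest. Its difference was -0.35 ± 0.16 (edgeR adjusted p 0.159), or -0.16 ± 0.09 without replicate 2. In H929 it stood at 548, 476 and 536 CPM with dBRD9-A and 454, 517 and 515 CPM with DMSO, overlapping ranges (0.07 ± 0.16). OS9, the lectin that reads the trimmed glycans, stood at 157, 183 and 162 CPM in OPM2 with dBRD9-A against 144, 137 and 143 CPM with DMSO, and at 248, 238 and 246 CPM in H929 with dBRD9-A against 207, 212 and 223 CPM with DMSO. It was the one member higher without overlap in both lines, by 0.24 ± 0.09 in OPM2 (adjusted p 0.0988) and 0.19 ± 0.09 in H929 (adjusted p 0.225), and neither passed. OS9 was called higher in OPM2 in 5 alternatives, among them DESeq2 (adjusted p 0.0180), limma-voom (0.0441) and removal of the GC trend (0.0429), and in H929 in 3, by limma-voom (0.0451), by library size alone (0.0384) and without OPM2 dBRD9-A replicate 2 (0.22 ± 0.07, edgeR adjusted p 0.0215). Without that library the OPM2 difference was 0.16 ± 0.08 (adjusted p 0.135).

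**Figure D2:**
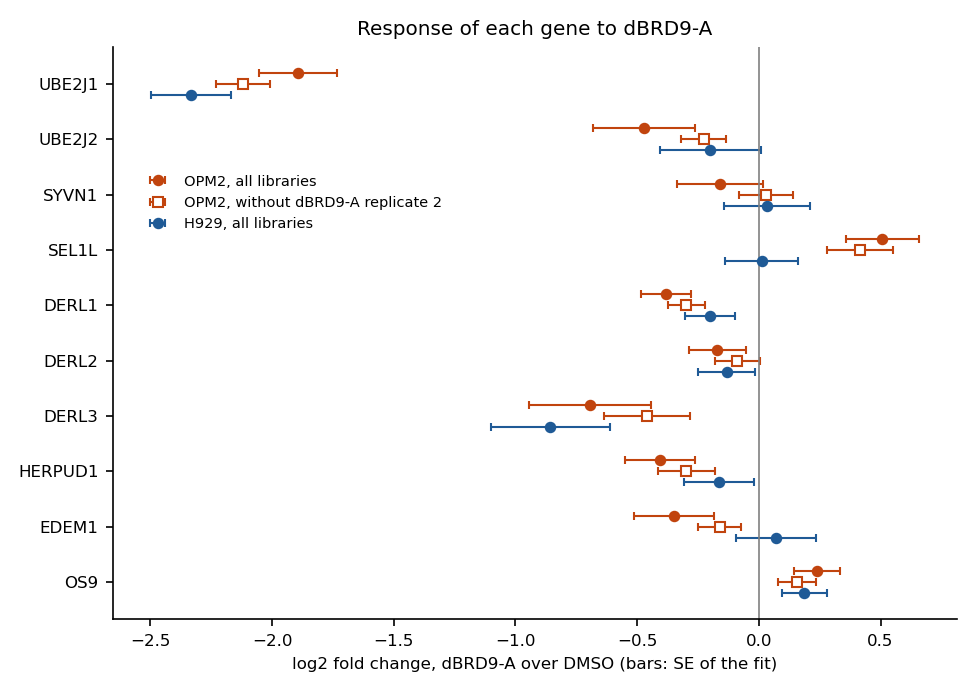
Log2 fold change of dBRD9-A over DMSO (horizontal axis; bars are the SE of the fit) for each of the 10 genes in OPM2 with all libraries, in OPM2 without dBRD9-A replicate 2, and in H929. UBE2J1 lies at -1.89 and -2.33, and the other 9 genes lie between -0.69 and 0.51 in OPM2 and between -0.86 and 0.19 in H929.

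Levels of different genes can be compared only per transcript length, and on that scale UBE2J1 was the most abundant of the 10 genes with DMSO and a middle one with dBRD9-A. It was number 3 of 10 in OPM2 with dBRD9-A, at 43.1 ± 10.6 CPM per kilobase, and number 1 in OPM2 with DMSO, at 160.0 ± 19.1 CPM per kilobase (SD, n = 3 each). It was number 6 in H929 with dBRD9-A, at 52.8 ± 2.19 CPM per kilobase, and number 1 in H929 with DMSO, at 266 ± 9.22 CPM per kilobase. In both DMSO groups its range lay above that of HERPUD1, the next gene. In OPM2 with dBRD9-A its range overlapped those of HERPUD1 above and SYVN1 below, and in H929 with dBRD9-A it lay below that of SYVN1 and overlapped that of DERL1. UBE2J1 made up 13.3 ± 4.12% of the summed CPM per kilobase of the 10 genes in OPM2 with dBRD9-A, against 33.7 ± 1.36% with DMSO. In H929 its share was 7.34 ± 0.15% with dBRD9-A, against 27.0 ± 0.21% with DMSO. The sum of the other 9 was 284 ± 34.1 CPM per kilobase in OPM2 with dBRD9-A and 315 ± 22.2 with DMSO. In H929 that sum was 666 ± 13.9 with dBRD9-A and 719 ± 32.0 with DMSO. Those summed ranges overlapped in OPM2 and stood narrowly apart in H929, at 653 to 681 against 683 to 744 CPM per kilobase.

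**Figure D3:**
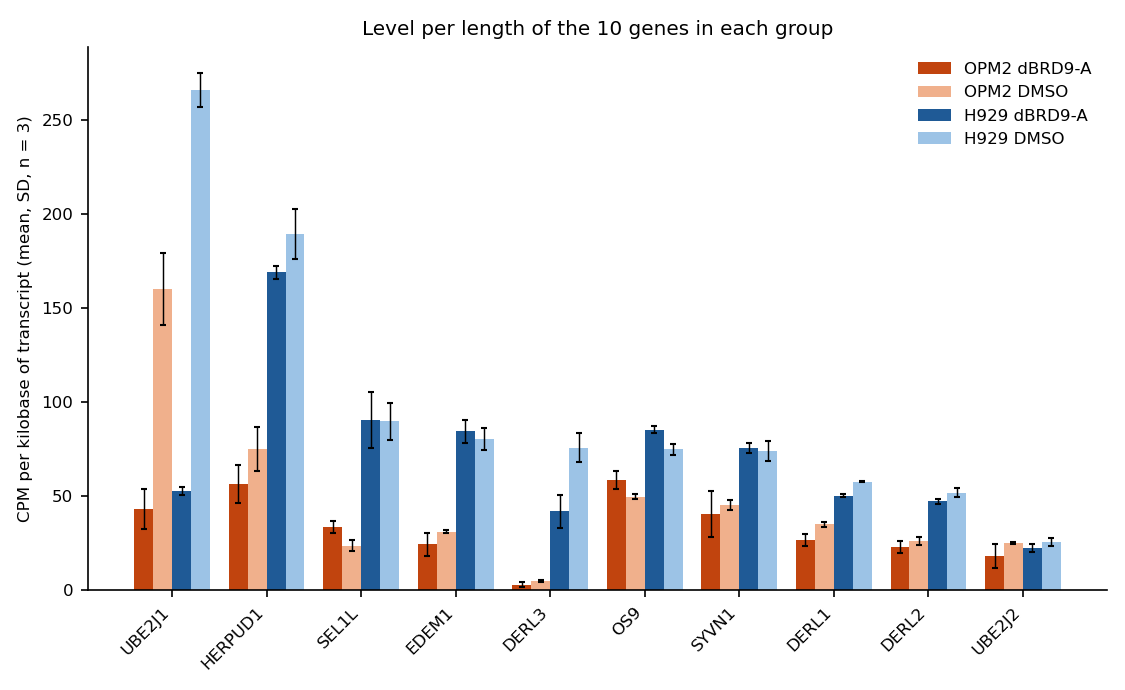
Mean TMM-scaled CPM per kilobase of transcript (bars from 0; error bars are the SD of 3 libraries) of the 10 genes in each group, ordered by the level in H929 with DMSO. UBE2J1 is number 3 in OPM2 with dBRD9-A, at 43.1, and number 6 in H929 with dBRD9-A, at 52.8, and the highest bar in both DMSO groups, at 160.0 and 266.

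Whether the lines responded by different amounts was tested as the response in H929 minus that in OPM2. None of the 9 other members was called by edgeR, where 0.579% of all genes were called, and none by DESeq2 or limma-voom; 1 of the 9 had an unadjusted p under 0.05. For UBE2J1, given as a description, the difference was -0.44 ± 0.22, and -0.18 ± 0.14 without OPM2 dBRD9-A replicate 2. For SEL1L, called in OPM2 alone in the main edgeR fit, the difference was -0.50 ± 0.21 (adjusted p 0.526). For DERL3, called in H929 alone in that fit, it was -0.16 ± 0.35 (adjusted p 0.905). The responses of the lines were not shown to differ for any of the 9.

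With DMSO, H929 held more of the ERAD transcripts than OPM2. The log2 difference was above 0 for all 10 genes, and 9 of 10 had no overlap between the lines, where 78.7% of all genes had none and 41.5% were higher in H929 without overlap. With an adjusted p under 0.05 and an absolute log2 difference of at least 1, 5 of 10 were called higher in H929, against 36.3% of all genes called, 21.4% higher and 15.0% lower. DERL3 differed most, at 242 ± 24.7 CPM in H929 and 14.7 ± 1.45 CPM in OPM2 (4.05 ± 0.27, log2 ± SE, edgeR adjusted p 8.21e-08). SEL1L differed by 1.93 ± 0.15, EDEM1 by 1.38 ± 0.17, HERPUD1 by 1.34 ± 0.15 and DERL2 by 1.002 ± 0.12, with edgeR adjusted p of at most 1.42e-05. DERL2 sat at the fold limit and lost its call in 13 of 21 alternatives, at 0.88 to 1.13 over them and 0.97 without OPM2 dBRD9-A replicate 2. UBE2J1 stood at 1155 ± 40.0 CPM in H929 and 695 ± 83.1 CPM in OPM2, a difference of 0.73 ± 0.16 (adjusted p 0.0013) that stayed under the fold limit, as did those of SYVN1, DERL1 and OS9 at 0.60 to 0.73. UBE2J2 was level, at 58.9 ± 4.65 CPM in H929 and 57.9 ± 1.05 CPM in OPM2 (0.02 ± 0.21, adjusted p 0.932), and the sign of its difference turned under other scalings.

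A wider list of 90 other genes of the ER quality-control route, in 5 roles, gave 89 genes tested, and RNF5 was not. FBXO2 (ER ubiquitin enzymes) and FAF1 (extraction and delivery) in OPM2, and ATF6B in H929, had at most 6 counts per library. These genes passed the filter through the other line and could hardly be called in the line where they were near 0. They stay in the counts and medians below. In OPM2, 17 of 89 were called, 4 higher and 13 lower, with a median log2 fold change of -0.10, where 17.4% of all genes were called, 10.1% higher and 7.34% lower. In H929, 5 of 89 were called, 3 higher and 2 lower, with a median of -0.08, where 13.0% of all genes were called, 7.33% higher and 5.67% lower. Without OPM2 dBRD9-A replicate 2 the counts were 9 higher and 23 lower in OPM2, where 31.7% of all genes were called, 16.1% higher and 15.6% lower. In H929 they were then 14 higher and 19 lower, where 35.7% of all genes were called, 19.2% higher and 16.5% lower. In both lines, 2 of the 89 genes were called lower and 1 higher, against 3.19% and 3.77% of all genes. UBE2G2, another ERAD conjugating enzyme, fell to 95.6, 84.5 and 103 CPM in OPM2 with dBRD9-A against 142, 160.3 and 139 CPM with DMSO, and in H929 to 110.0, 110.1 and 136 CPM with dBRD9-A against 145, 197 and 161 CPM with DMSO. Its changes were -0.64 ± 0.14 (edgeR adjusted p 0.0097) and -0.50 ± 0.14 (adjusted p 0.0361), and the H929 call was lost in 11 of 22 alternatives, with adjusted p up to 0.230, among them leaving out H929 DMSO replicate 2 or 3, H929 dBRD9-A replicate 1 or 2 or any OPM2 DMSO library.

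ERLIN1 and RNF170, a scaffold and a ligase known to act together on inositol trisphosphate receptors, moved in opposite directions. ERLIN1 fell by 0.62 ± 0.13 in OPM2 (edgeR adjusted p 0.0072) and by 0.60 ± 0.13 in H929 (adjusted p 0.0107), to 35.5 ± 3.51 against 54.6 ± 2.55 CPM and 18.2 ± 2.16 against 27.5 ± 2.98 CPM (dBRD9-A against DMSO, SD, n = 3 each). RNF170 rose by 0.58 ± 0.13 in OPM2 (adjusted p 0.0114) and by 1.02 ± 0.13 in H929 (adjusted p 0.0008), with 67.4, 79.0 and 55.6 CPM in OPM2 with dBRD9-A against 47.2, 45.9 and 42.4 CPM with DMSO, and 113, 101 and 109 CPM in H929 with dBRD9-A against 57.8, 48.8 and 52.9 CPM with DMSO. The OPM2 call of RNF170 was lost without OPM2 DMSO replicate 3 (adjusted p 0.0554) and with each line fitted alone (0.0753), and the H929 call of ERLIN1 without H929 DMSO replicate 2 or H929 dBRD9-A replicate 1 or 2 (up to 0.0831). Of 19 ER ubiquitin enzymes, 4 were called in OPM2 (2 higher and 2 lower) and 2 in H929 (1 each way), against the same 17.4% and 13.0% of all genes. They were 4 in OPM2 without OPM2 dBRD9-A replicate 2 (2 each way) and 10 in H929 (6 higher and 4 lower), against 31.7% and 35.7% of all genes. MARCH6, an ER membrane ligase, rose by 0.54 ± 0.11 in OPM2 (adjusted p 0.0071) and differed by 0.33 ± 0.11 in H929 (adjusted p 0.0696). MARCH6 was called higher in H929 in 8 of 22 alternatives. Among them were DESeq2 (adjusted p 0.0072), limma-voom (0.0021) and edgeR without OPM2 dBRD9-A replicate 2 (0.0051). RNF145, another membrane ligase, fell by 0.55 ± 0.16 in OPM2 (adjusted p 0.0327) and differed by 0.10 ± 0.16 in H929; its call was lost without any 1 OPM2 DMSO library (adjusted p up to 0.0977).

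Of 19 genes of the membrane complex, lectins and mannosidases, 2 were called in OPM2 and 3 in H929, against 17.4% and 13.0% of all genes. Leaving out OPM2 dBRD9-A replicate 2 gave 6 in OPM2 (2 higher and 4 lower) and 6 in H929 (4 higher and 2 lower), against 31.7% and 35.7% of all genes. FAM8A1, an HRD1 complex subunit, and HERPUD2, a relative of HERPUD1, rose in H929, by 0.59 ± 0.17 (edgeR adjusted p 0.0353) and 0.48 ± 0.14 (adjusted p 0.0379). JKAMP, which recruits proteasomes to the ER, rose by 0.34 ± 0.10 in OPM2 (adjusted p 0.0418). All 3 calls were lost without any 1 DMSO library of either line or without H929 dBRD9-A replicate 1 or 3, and that of JKAMP also without OPM2 dBRD9-A replicate 1 or 3 (adjusted p up to 0.152). Of 25 genes of extraction and delivery, 3 fell in OPM2, where 7.34% of all genes were called lower. In H929 edgeR called none, where 13.0% of all genes were called, and 5 had an unadjusted p under 0.05. DESeq2 called 2 of the 25 in H929, against 3149 of all 16408 genes, and limma-voom 10, against 5910. With OPM2 dBRD9-A replicate 2 left out, edgeR called 4 in OPM2 (1 higher and 3 lower), against 31.7% of all genes. It then called 9 in H929 (2 higher and 7 lower), against 35.7% of all genes. UBL4A and SGTA, which hand on exposed membrane segments in the cytosol, fell by 0.89 ± 0.24 and 0.52 ± 0.14 in OPM2 (adjusted p 0.0246 and 0.0239), and UBQLN4, a proteasome shuttle, by 0.46 ± 0.14 (adjusted p 0.0477). These calls were lost without any 1 OPM2 DMSO library, and that of UBQLN4 also without any 1 H929 library or OPM2 dBRD9-A replicate 1; adjusted p over all alternatives reached 0.131, 0.626 and 0.168 for UBL4A, SGTA and UBQLN4. With the GC trend removed, the SGTA value in OPM2 was -0.11. VCP, the ATPase that pulls substrates from the membrane, differed by -0.31 ± 0.17 in OPM2, or -0.10 without OPM2 dBRD9-A replicate 2, and by -0.02 ± 0.17 in H929, and was not called by edgeR.

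ER chaperones gave the most calls of the 5 roles in OPM2, 7 lower and 1 higher of 19, where 7.34% of all genes were called lower and 10.1% higher. Without OPM2 dBRD9-A replicate 2 they were 13 lower and 2 higher, where 15.6% of all genes were called lower and 16.1% higher. In H929 edgeR called none of the 19, where 13.0% of all genes were called, and 4 had an unadjusted p under 0.05. DESeq2 called 0 of the 19 in H929, against 3149 of all 16408 genes, and limma-voom 8, against 5910. Without OPM2 dBRD9-A replicate 2, edgeR called 6 of the 19 lower in H929, where 16.5% of all genes were called lower. HSPA5, the central ER chaperone BiP, fell in OPM2 to 400.1, 438 and 414 CPM with dBRD9-A, against 525, 537 and 573 CPM with DMSO (-0.38 ± 0.09, edgeR adjusted p 0.0159), and differed by -0.16 ± 0.09 in H929 (adjusted p 0.292). SDF2L1, PDIA4 and HYOU1 fell in OPM2 by 1.03 ± 0.23, 0.77 ± 0.17 and 0.65 ± 0.13 (adjusted p 0.0101, 0.0091 and 0.0051), and DNAJB14 rose by 0.74 ± 0.20 (adjusted p 0.0288), or 0.48 without OPM2 dBRD9-A replicate 2 (adjusted p 0.0274). The call of HSPA5 was lost without OPM2 DMSO replicate 3 (adjusted p 0.0688) or OPM2 dBRD9-A replicate 1 (0.0528) and that of DNAJB14 without any 1 OPM2 DMSO library (up to 0.106). None of the 7 regulators of the unfolded protein response was called in either line by edgeR, where 17.4% and 13.0% of all genes were called. Of these regulators, ATF6B had at most 2 counts per library in H929 and could hardly be called there. An unadjusted p under 0.05 was found for 2 of the 7 in OPM2 and 1 in H929. DESeq2 called 1 in OPM2 and 0 in H929, against 4092 and 3149 of all 16408 genes. Limma-voom called 5 and 3, against 7243 and 5910. The edgeR test without OPM2 dBRD9-A replicate 2 called 2 higher and 1 lower in OPM2, against 16.1% and 15.6% of all genes. It called 2 higher in H929, against 19.2% of all genes. XBP1, the response's plasma-cell transcription factor, stood at 1793, 1650.1 and 1827 CPM in OPM2 with dBRD9-A against 1559, 1351 and 1518 CPM with DMSO (0.25 ± 0.10, adjusted p 0.108), and at 2259, 2192 and 2037 CPM in H929 with dBRD9-A against 2271, 2297 and 2334 CPM with DMSO (-0.09 ± 0.10, adjusted p 0.631). The ranges were apart in each line, higher with dBRD9-A in OPM2 and lower in H929, and the difference of the responses was not called (-0.34 ± 0.14, adjusted p 0.519). XBP1 was called higher in OPM2 in 5 alternatives, among them DESeq2 (adjusted p 0.0074) and edgeR without OPM2 dBRD9-A replicate 2 (0.28, adjusted p 0.0235). ERN1, the IRE1 sensor, differed by 0.45 ± 0.20 in OPM2 and 0.32 ± 0.20 in H929 and was not called by edgeR with all libraries. Without OPM2 dBRD9-A replicate 2 it was called higher in OPM2 (0.66, edgeR adjusted p 0.0005) and in H929 (0.35, adjusted p 0.0130), and limma-voom called it in both lines. Without OPM2 dBRD9-A replicate 3 its OPM2 value was 0.25. ATF6, another sensor, differed by 0.27 ± 0.13 in OPM2, or 0.12 without replicate 2, and by 0.07 ± 0.13 in H929, and edgeR did not call it in either fit.

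**Figure D4:**
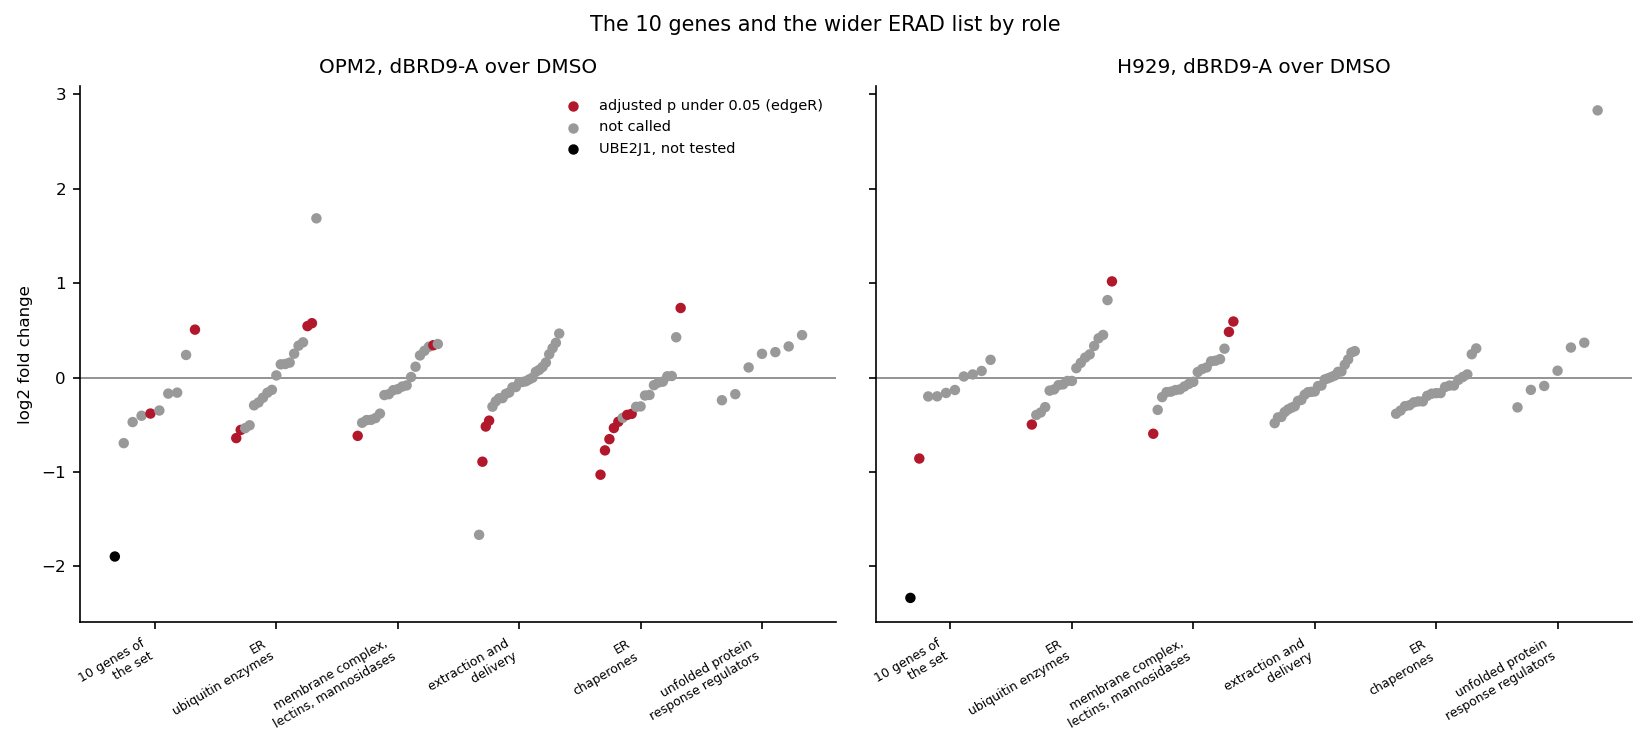
Log2 fold change of dBRD9-A over DMSO (vertical axis) for the 10 genes and the 89 wider-list genes by role in OPM2 (left) and H929 (right); each point is a gene, red where called by edgeR, grey where not, and black for UBE2J1, which was not tested. UBE2J1 is the lowest point in both panels, at -1.89 and -2.33; the outlying grey points, FAF1 and FBXO2 in OPM2 and ATF6B in H929, rest on at most 6 counts per library.

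Genes were ranked by how closely their pattern followed that of UBE2J1, as the root mean square difference of centred log2 CPM over the 12 libraries, among the 9354 other genes with a mean log2 CPM of at least 3. The measure uses the values for which UBE2J1 was chosen, so it is a description. The nearest was IGJ, at 0.46, against a median of 1.16. IGJ averaged 2436 ± 234 CPM in OPM2 with dBRD9-A and 7146 ± 810.2 CPM with DMSO, and 4390 ± 495 CPM in H929 with dBRD9-A and 9643 ± 386 CPM with DMSO (SD, n = 3 each). PLD6, ZBTB8A, GALNT18 and POLR3G followed at 0.50, 0.52, 0.53 and 0.55. Among the other ERAD members and the wider list, the nearest were UBE2G2 at 0.84, UBL4A at 0.85 and CALR, an ER lectin chaperone, at 0.90, all farther than the 5 genes above.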

How the data were processed

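RNA-seq files of 12 libraries were used, and 18 further samples of the 30 listed (hairpin or polysome libraries) were not analysed here. STAR, featureCounts, hg19 and GRCh37 are named, without versions, per the submitters' processing notes; no source used here gives the strand setting. Per the file headers, the deposited values are raw counts for 51780 RefSeq transcripts, in which 1 read can enter several transcripts of its gene. The deposited FPKM values of the authors served only to recover transcript lengths, and the deposited TPM values were not used.

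Each symbol was represented by 1 transcript. Genes were filtered with filterByExpr by group (16408 left), scaled by TMM, and tested in R 4.3.3 with edgeR 4.0.16 (quasi-likelihood, 4 group means over all 12 libraries, 8 residual degrees of freedom, Benjamini-Hochberg). Each SE given with an edgeR log2 difference is the absolute difference divided by the square root of the F statistic of its test. For UBE2J1 with dBRD9-A against DMSO, that SE is part of the description and not a test. Values of CPM are TMM-scaled. Member counts ranged between 126 and 68795 per library. The code of the tests was run on simulated data with the same spread for all genes and no outlying library. That run cannot show how the tests behave with a library such as OPM2 dBRD9-A replicate 2. DESeq2 1.42.0 and limma 3.58.1 (voom with library weights) were among 22 alternatives. The members, the lists and the rule for named genes (the members, wider-list genes called in both lines, up to 4 more called per role and line by size, and 6 fixed genes, 1 of which is not reported here) were chosen with earlier results of these data known. Promoters are from RefSeq (GRCh38.p14), and exon overlaps from GENCODE on GRCh38, another build than that of the counts.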

Additional observations from a re-analysis of the deposited data

How the results depend on the processing

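The count of the 9 other members called in OPM2, 2, was 6 by limma-voom, 5 after removal of a GC trend, 4 by DESeq2 and 0 with each line fitted alone, and ranged between 0 and 5 with 1 library left out. The H929 count, 1, was 3 with limma-voom and 0 with counts summed over transcripts, and 0 to 2 with 1 library left out. The wider-list count in OPM2, 17, was 4 with each line fitted alone and 42 with limma-voom, and 7 to 32 with 1 library left out. The H929 count, 5, was 37 by limma-voom, 26 with each line fitted alone, 17 after removal of the GC trend and 9 by DESeq2, and 1 to 33 with 1 library left out. The number of all genes called moved as well. In OPM2 it was 2857 in the main fit, 7243 by limma-voom, 4396 after removal of the GC trend and 4092 by DESeq2. In H929 those fits called 2134, 5910, 3663 and 3149 genes, and summed transcripts gave 1902. With each line fitted alone it was 871 of 14956 genes in OPM2 and 4970 of 15410 in H929. With 1 library left out it was 1381 to 5277 in OPM2 and 812 to 5946 in H929. No member was called for the difference of responses in 21 alternatives, and 4 to 5 were called between the lines. UBE2J1 kept its sign in all alternatives, at -2.12 to -1.76 in OPM2 and -2.34 to -2.24 in H929.

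Same-numbered replicates did not vary together (correlations of 0.15, -0.02 and 0.0054 in OPM2 and 0.0063, -0.24 and -0.10 in H929). Libraries of different number gave -0.19 to 0.093 in OPM2 and -0.43 to 0.49 in H929. The numbers were not used as pairs in the main fit, and these correlations cannot settle whether libraries were paired in another way. With the replicate number as a block the member counts were 0 and 0 and the wider-list counts 11 in OPM2 and 1 in H929. That fit called 1729 of all 16408 genes in OPM2 and 1112 in H929.

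Signs that turned belonged to small differences that were not called. UBE2J2 between the lines was -0.17 with the GC trend removed, -0.10 by library size alone, -0.011 with limma-voom and -0.22 with the replicate block, and -0.064 to 0.035 with 1 library left out. SYVN1 in OPM2 was 0.068 with the GC trend removed and -0.41 to 0.028 with 1 library left out, and in H929 -0.015 with limma-voom. SEL1L in H929 ranged between -0.061 and 0.17 with 1 library left out. For the difference of responses, DERL2 was -0.019 with limma-voom and -0.029 to 0.14 with 1 library left out, DERL3 -0.37 to 0.19 with 1 left out, and OS9 0.0076 by library size alone, 0.018 with limma-voom and -0.094 to 0.064 with 1 left out. XBP1 in H929 was 0.0056 by library size alone. VCP in H929 was 0.020 with a 1 CPM filter, DESeq2 or RLE factors, 0.019 with the GC trend removed, 0.075 by library size alone, 0.0013 with summed transcripts, and -0.023 to 0.058 with 1 library left out. The cause was not tested. By library size alone, 69.4% of the genes called in OPM2 and 71.8% of those called in H929 were higher, against 57.8% and 56.4% with TMM.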

Other observations

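With DMSO, 17 of the 89 wider-list genes were called between the lines, 12 higher and 5 lower in H929. Of all genes, 36.3% were called, 21.4% higher and 15.0% lower. Of the 19 ER chaperones, 5 were called higher and 0 lower. CANX, the membrane lectin chaperone calnexin, stood at 2792 ± 81.1 CPM in H929 and 1005 ± 30.5 CPM in OPM2, HSPA5 at 1313 ± 61.5 and 545 ± 24.6 CPM, and HYOU1 at 1380 ± 132 and 503 ± 20.2 CPM (SD, n = 3 each). BCAP31, an ER membrane protein that carries cargo towards degradation or export, stood at 484 ± 29.3 CPM in H929 and 135 ± 2.92 CPM in OPM2. NPLOC4, a cofactor of VCP, was lower in H929, at 123 ± 5.26 CPM, against 324 ± 23.9 CPM in OPM2.

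Some wider-list genes, named after their values were seen, were at or near 0 counts in one line. FAF1, a VCP-binding protein, had 3518 to 5539 counts in the 6 H929 libraries, against 1 count in OPM2 DMSO replicate 2 and 0 in the other 5 OPM2 libraries. ATF6B, a relative of ATF6, had 2 counts in H929 dBRD9-A replicate 3 and 0 in the other 5 H929 libraries, against 199 to 887 counts in the 6 OPM2 libraries.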
